A study of Mus musculus with 11 samples.

Results

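Mouse embryonic stem (ES) cells that overexpress plakoglobin were split by their Nanog transcripts, and the 2 groups were compared across all other genes. In the library labelled JupHigh, 492 cells held 2 or more Nanog molecules and are called Nanog-high here, and 1046 cells held none and are called Nanog-undetected. They were taken from 2153 cells, of 4688 barcodes in the table, with at least 1000 transcript molecules (unique molecular identifiers, UMIs) and at most 0.9 detected genes per UMI. The series holds 7079 such cells in 5 single-cell libraries, and no barcode of JupHigh was shared with another library. The cells were chosen by their number of Nanog UMIs, so Nanog itself is described and not tested.

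The study asks how plakoglobin, an armadillo-repeat protein of cell junctions encoded by Jup and related to beta-catenin, bears on naive pluripotency. JupHigh cells carried the genotype PGHIGH, a high constitutive overexpression of plakoglobin from the CAG promoter, and grew in serum and LIF on tissue-culture plastic. JupLow cells (PGLOW) grew the same way with low overexpression from that promoter. Wild-type E14 cells, an established ES line, were profiled on plastic in 2i and LIF, on plastic in serum and LIF, and in gels in serum and LIF. Each condition was 1 inDrop droplet library, the parent line of the overexpressing cells is not named in the labels, and the 6 bulk samples hold no single cells and were not used.

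Nanog encodes a homeodomain transcription factor of the naive pluripotency network, beside Pou5f1 (Oct4) and Sox2. In serum and LIF its level is known to vary between ES cells, and cells low in Nanog are known to be more prone to differentiate. In 2i, inhibitors of MEK and GSK3 hold the cells near a uniform naive state.

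Nanog lies at chr6:122707489-122714633 on the plus strand (GENCODE M21, GRCm38). The 250 bases before its start site are shown because Nanog splits the cells, with a composite Oct-Sox element in capitals. Those before Zfp42, which encodes the naive marker Rex1, are shown with the 7-base core of an octamer motif in capitals. Zfp42 carried the clearest naive difference in the edgeR tests over libraries, though not in DESeq2. Both come from RefSeq on GRCm38.p6, at chr6:122707239-122707488 on the plus strand and chr8:43307010-43307259 on the minus strand, and are written 5′ to 3′.

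Nanog: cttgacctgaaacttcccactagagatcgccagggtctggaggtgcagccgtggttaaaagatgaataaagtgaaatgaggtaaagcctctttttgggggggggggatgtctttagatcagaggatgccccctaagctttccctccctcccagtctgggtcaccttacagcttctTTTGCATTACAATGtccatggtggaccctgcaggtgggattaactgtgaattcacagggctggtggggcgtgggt

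Zfp42: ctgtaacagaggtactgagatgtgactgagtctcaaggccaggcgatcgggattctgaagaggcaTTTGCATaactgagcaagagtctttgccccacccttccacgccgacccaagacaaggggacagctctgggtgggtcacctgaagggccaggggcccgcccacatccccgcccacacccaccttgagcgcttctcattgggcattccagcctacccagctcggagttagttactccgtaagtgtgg

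The Nanog element began 75 bases before this start site and 151 bases before a second one that RefSeq gives. Windows of 300 bases around the start sites in the RefSeq table used here, which does not cover every gene, were searched on both strands for TTTGCAT, the 7-base core of the octamer motif, and for the composite element, which is that core followed after any 1 base by ACAATG. The core was in 1520 of 32851 windows (4.63%), and the composite element was in 2, both of Nanog (0.00609%). Among the 11 naive genes with a window, Nanog included, the core was found in Nanog and Zfp42 alone.

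Nanog reached 449.8 CPM (UMIs of the gene scaled to 1e6 UMIs in all) over all JupHigh cells, with a 95% Poisson interval of 430.0 to 470.3 from 1939 UMIs. Intervals here cover counting error only. Of the Nanog-high cells, 281 held 2 UMIs, 128 held 3 and 83 held 4 or more, with 10 as the most in 1 cell. Just outside the threshold lay 615 cells with 1 UMI. If every cell had carried Nanog at the same rate per UMI, 913 cells with none, 748 with 1 and 492 with more were computed from the cells' depths, against 1046, 615 and 492 observed. Counted per UMI not from mitochondrial genes, the same computation gave 967, 688 and 498. The observed number without Nanog was above the computed one in both cases, by a smaller margin when mitochondrial UMIs were set aside. These counts chose the cells and are given with no test. A count of 0 at the median depth of these cells allows up to 1719 CPM, so "undetected" does not mean absent. Barcodes under 500 UMIs in the same table held Nanog at 728.3 CPM, and at 804 CPM of non-mitochondrial UMIs against 650.2 in the kept cells, so Nanog RNA was also present outside the cells kept here.

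The labels state an overexpression of Jup. Its level was 69.1 CPM of non-mitochondrial UMIs in JupHigh (60.0 to 79.2), 49.2 in JupLow (40.4 to 59.4), 58.2 in wild-type cells in 2i (52.5 to 64.3), and 46.0 in those in serum on plastic (36.1 to 57.7). JupHigh had the highest level of these libraries, but its interval overlapped that of the 2i library, and JupLow could not be told from wild-type serum cells. Whether the table counts transcripts of the transgene was not tested. Within JupHigh, Jup was 76.8 CPM in Nanog-high and 68.9 CPM in Nanog-undetected cells.

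Mitochondrial transcripts differed widely between the groups. Nanog UMIs are not mitochondrial, so at a given total the choice by Nanog UMIs itself favours a lower mitochondrial share in Nanog-high cells. How much of the difference comes from this choice was not tested. The median mitochondrial share of a cell's UMIs was 32.8% in Nanog-undetected cells, 15.9% in cells with 1 Nanog UMI and 12.9% in Nanog-high cells. Of the undetected cells, 532 (50.9%) had 30% or more of their UMIs from mitochondrial genes, against 95 (19.3%) of the Nanog-high cells. The choice by Nanog UMIs also favours deeper cells, so a difference in depth follows in part from the rule. The Nanog-high cells had a median of 2201 UMIs against 1745.5, and 1764.5 against 1004 outside the mitochondrial genes. At 1000 UMIs per cell they showed a median of 724 genes against 588.

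**Figure D1:**
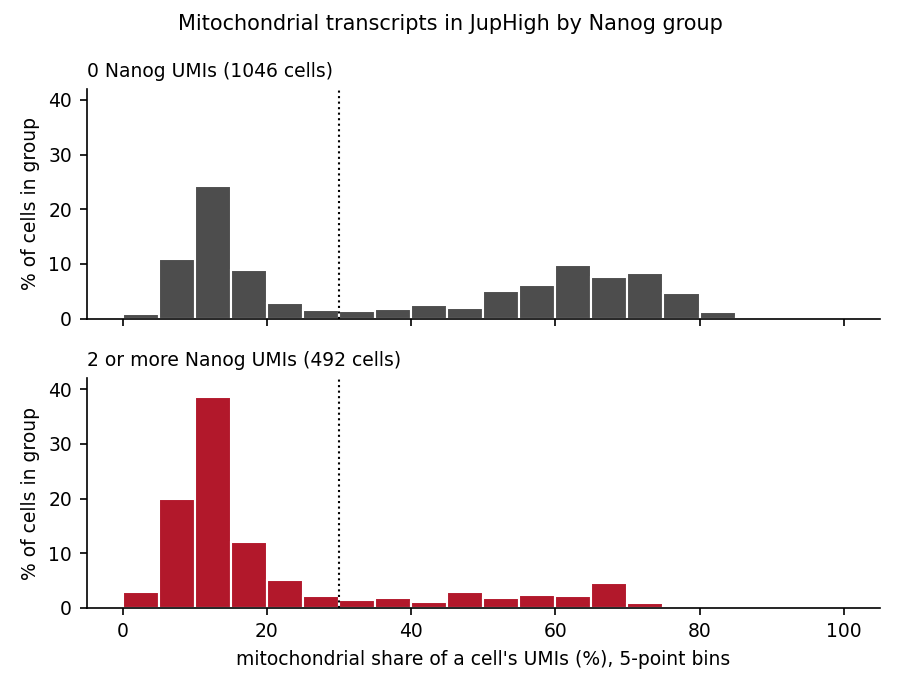
Percent of cells (y axis) by mitochondrial share of UMIs in bins of 5 points (x axis) for the 1046 Nanog-undetected cells (top) and the 492 Nanog-high cells (bottom) of JupHigh, with a dotted line at 30%. Both groups have a peak between 10 and 15%, and 50.9% of undetected cells against 19.3% of Nanog-high cells lie at or beyond the line. The undetected cells have another peak between 60 and 65% (103 cells), and the Nanog-high cells a smaller one between 65 and 70% (22 cells).

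The same direction was seen in the other libraries, where the same rule chose the cells, with other sizes. In JupLow 39.4% of Nanog-undetected and 11.4% of Nanog-high cells were at 30% or more, in wild-type cells in 2i 20.7% and 6.70%, and in wild-type cells in serum 30.6% and 9.38%. The median share in undetected cells was 11.2% in JupLow, 10.7% in 2i and 9.86% in wild-type serum cells, below the 32.8% of JupHigh. That JupHigh median lay between 2 peaks, with 253 undetected cells at 10 to 15%, 14 at 30 to 35% and 103 at 60 to 65%. The share of undetected cells at 30% or more was 50.9% in JupHigh, against the 39.4% of JupLow.

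Mitochondrial UMIs count towards each cell's total, so a level per total UMI depends on their share. In bands of equal total UMIs, which took in 488 of the Nanog-high cells because the deepest band held no undetected cell, 464 of 3182 genes at 50 CPM or more were at least 1.5-fold higher in Nanog-high cells (14.6%) and 39 were at least 1.5-fold lower (1.23%). The median log2 ratio of all these genes was 0.35, so a typical gene was higher in Nanog-high cells. With 1 library there is no test of these ratios, and the 1.5-fold limit is a rule of size. Of the 12 lowest ratios, 11 belonged to mitochondrial genes or nuclear copies of them, whose reads cannot be told apart with certainty. These 12 were taken among genes whose interval left out 0 and whose direction was the same in every depth band. mt-Cytb, a subunit of respiratory complex III, was at 17095 CPM in Nanog-high and 33932 CPM in undetected cells, a log2 ratio of −0.99. mt-Nd2, of complex I, was at 7513 and 16104 CPM, a log2 ratio of −1.10. The exception was Bod1l, a protector of stalled replication forks, at 40.4 and 75.7 CPM (−0.91, interval −1.46 to −0.36). On the second scaling, described next, Bod1l was at −0.30 with an interval of −0.89 to 0.29.

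A second scaling was therefore added after these values were seen. It scales each gene to non-mitochondrial UMIs only and compares cells in bands of equal non-mitochondrial UMIs, over 476 Nanog-high and 885 undetected cells with at least 500 of them. A further 11 Nanog-high cells lay in a band with no undetected cell and were not used. On it, 20 of 3160 genes were at least 1.5-fold higher in Nanog-high cells (0.633%), 26 were lower (0.823%), and the median was 0.01. Between cells so matched, the median ratio of 14 mitochondrial genes was −0.01, with 6 above 0 and 8 below and none past 1.5-fold. mt-Cytb was at 0.03 and mt-Nd2 at 0.06, while mt-Nd4l (−0.17) and the ribosomal RNAs mt-Rnr1 (−0.14) and mt-Rnr2 (−0.11) were lower. Since each cell had at least 1000 UMIs in all, cells with few non-mitochondrial UMIs have a high mitochondrial share in both groups by construction. In bands of total UMIs, cells under 30% mitochondrial (394 against 514) had 47 genes higher (1.49%) and 41 lower (1.3%), with a median of 0.02. In the same bands, cells at 30% or more (94 against 532) had 719 genes higher (22.8%) and 185 lower (5.85%), with a median of 0.25. The counts were higher in both directions among the cells rich in mitochondrial UMIs, where only 94 Nanog-high cells were compared. Ratios below are on the non-mitochondrial scaling unless the total scaling is named.

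**Figure D2:**
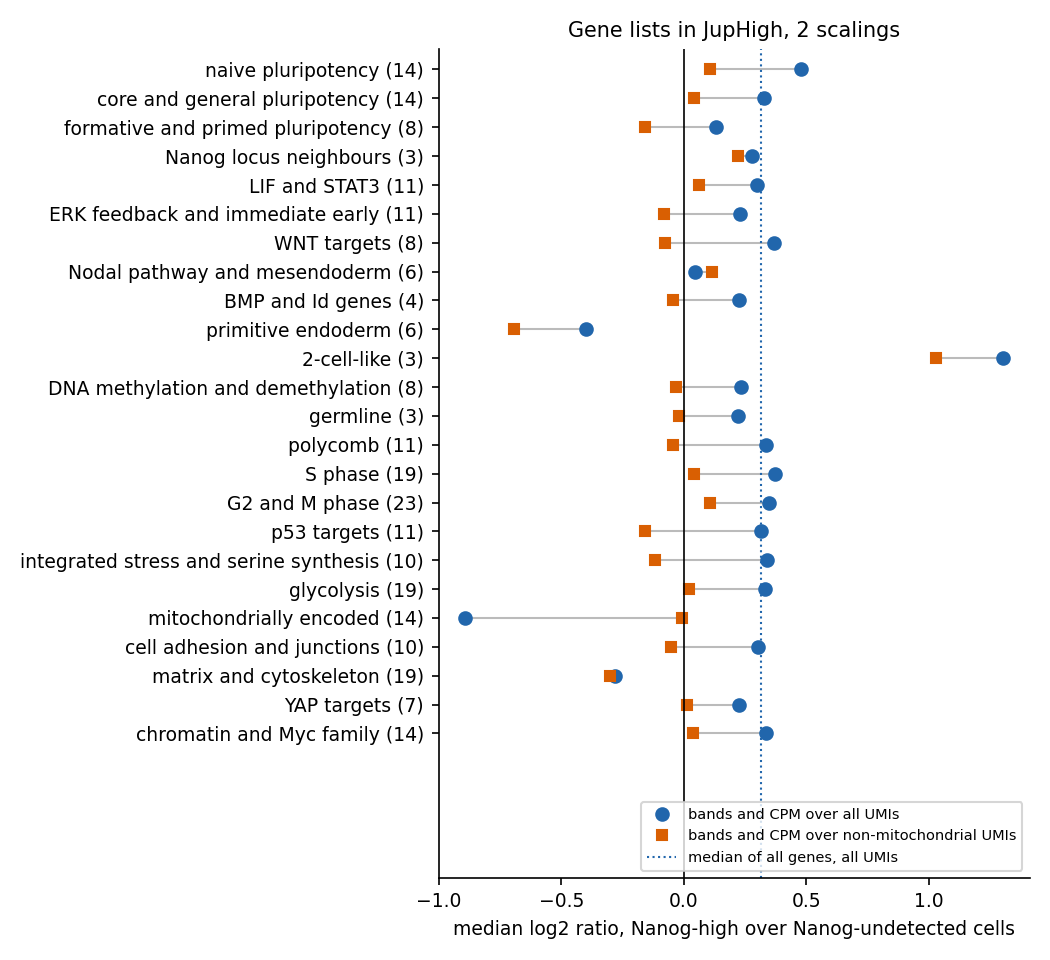
Median log2 ratio of Nanog-high over Nanog-undetected cells in JupHigh (x axis) for each gene list (y axis, number of genes at 20 CPM or more in brackets), on all UMIs (circles) and on non-mitochondrial UMIs (squares), with the median of all genes on all UMIs dotted. Most lists move from near the dotted line to near 0, while primitive endoderm and the matrix and cytoskeleton list are below 0 and the 2-cell-like list above 0 on both.

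Most naive pluripotency genes differed little between the groups. Of the 14 list genes at 20 CPM or more, 11 had a ratio above 0, 1 was at least 1.5-fold higher, and the median was 0.11. Over all genes at that level, 3074 of 6137 were above 0 and the median was 0.00. Of the 6114 that are not mitochondrial, 192 were at least 1.5-fold higher. On total UMIs all 14 were above 0 with a median of 0.48, against 0.32 over all genes. Zfp42 was at 1180 CPM in Nanog-high and 1008 CPM in undetected cells, a log2 ratio of 0.23 (0.09 to 0.37). By Nanog UMIs, Zfp42 was at 979 CPM in cells with none, 1068 with 1, 1181 with 2 and 1201 with 3 or more. The interval of its ratio lay above 0, and the levels of cells with 1 and with 2 Nanog UMIs, on either side of the threshold, overlapped within counting error.

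Tcl1, a co-activator of AKT kinase, had the widest ratio in the naive list. It was at 77.3 CPM in Nanog-high and 30.03 CPM in undetected cells, a log2 ratio of 1.36 (0.69 to 2.08). These values rested on 66 and 38 UMIs, and over all cells Tcl1 was detected in 61 of the 492 Nanog-high and 39 of the 1046 undetected cells. Thinned to 500 non-mitochondrial UMIs per cell, it was detected in 3.08% of Nanog-high cells (exact binomial interval 1.73 to 5.03) and 1.58% of undetected cells (0.867 to 2.64), which overlap. Tcl1 was at 33.6 CPM in cells with no Nanog UMI, 51.6 with 1, 80.1 with 2 and 73.3 with 3 or more. It was thus higher in both Nanog-high classes than in cells without Nanog, and the intervals of those 2 classes and the undetected class did not overlap.

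The other naive regulators differed little. Klf2, a Kruppel-like factor, was at 674 and 622 CPM (0.12, −0.07 to 0.30), and Klf4, a target of STAT3, at 455 and 402 CPM (0.18, −0.05 to 0.41). Esrrb, an orphan nuclear receptor and a known Nanog target, was at 468 and 436 CPM (0.10, −0.12 to 0.32). Nr0b1 (Dax1), a nuclear receptor that restrains differentiation, was at 238 and 198 CPM (0.26, −0.05 to 0.57). Each of these intervals spans 0, so at this depth no difference was detectable. Tdh, the threonine dehydrogenase that feeds one-carbon metabolism in ES cells, was at 1752 and 1731 CPM (0.02, −0.09 to 0.13). On total UMIs the same 5 genes had ratios of 0.57 for Klf2, 0.30 for Klf4, 0.45 for Esrrb, 0.50 for Nr0b1 and 0.52 for Tdh. Klf5 (−0.07), Nr5a2 (−0.09) and Stat3 (−0.04) were the 3 naive list genes below 0.

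**Figure D3:**
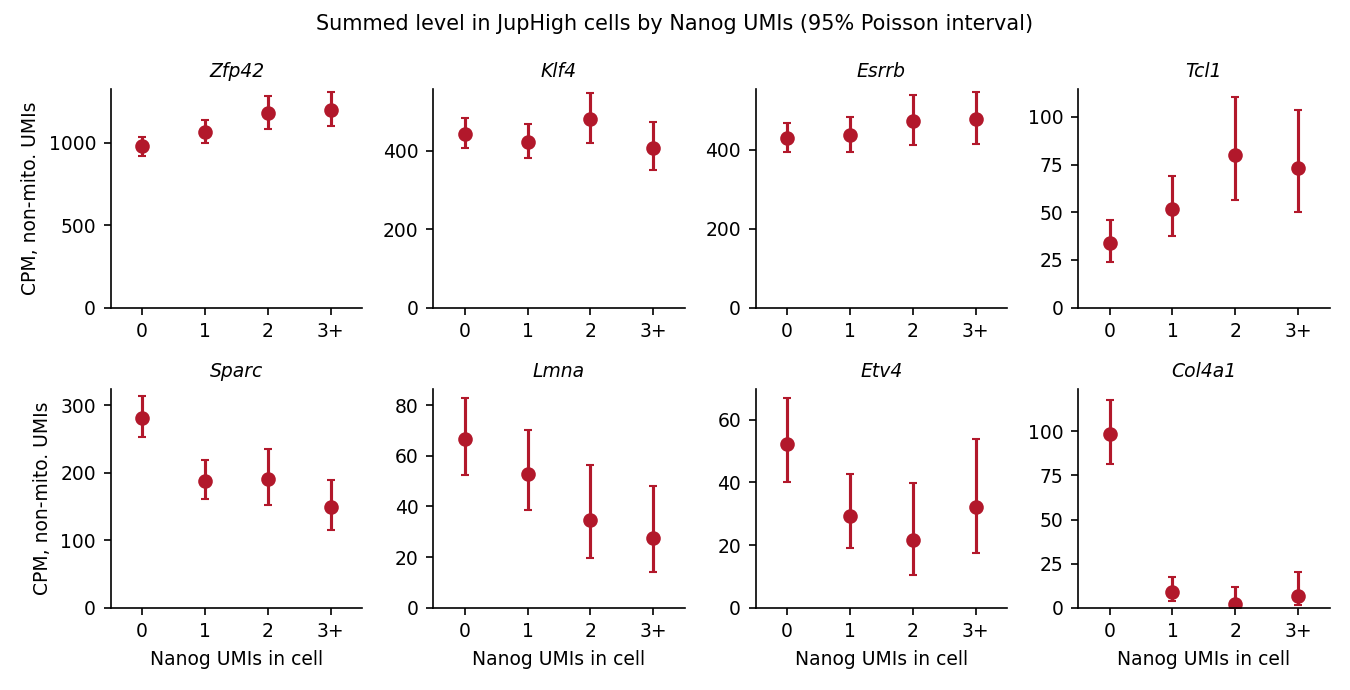
Summed CPM of non-mitochondrial UMIs (y axes from 0) of 8 genes in JupHigh cells with 0, 1, 2 and 3 or more Nanog UMIs (x axis), without matching for depth, with 95% Poisson intervals. Tcl1 goes from 33.6 CPM without Nanog to 80.1 with 2 UMIs, while Sparc and Lmna are lower in cells with Nanog. The Lmna intervals of cells with 0 and with 1 Nanog UMI overlap. Of the 335 Sparc UMIs in cells without Nanog, 106 lie in 7 Col4a1-rich cells described below.

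Core pluripotency genes, which mark the labelled cell type, were measured at like levels in both groups. Pou5f1 was at 726 CPM in Nanog-high and 761 CPM in undetected cells (−0.07, −0.24 to 0.11), and Sox2 at 505 and 478 CPM (0.08, −0.13 to 0.29). The median of the 14 core genes was 0.04.

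Formative and primed genes, which mark the way out of the naive state, were spread around 0. Of 8 measured at 20 CPM, 3 were above 0 and 5 below, with a median of −0.16 (0.13 on total UMIs). Etv4, an ETS factor downstream of FGF and ERK signalling, was at 27.0 CPM in Nanog-high and 50.6 CPM in undetected cells (−0.91, −1.73 to −0.11). Lef1, a nuclear partner of beta-catenin, was at 73.8 and 107 CPM (−0.53, −1.03 to −0.03). The de novo methyltransferase Dnmt3b was at 482 and 541 CPM (−0.17, −0.38 to 0.04). Otx2 and Pou3f1 were below the entry level of 20 CPM of total UMIs over all JupHigh cells and were not compared.

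Signalling lists were likewise near the median of all genes. The median of 11 LIF and STAT3 genes was 0.06, that of 11 ERK feedback and immediate early genes −0.08, and that of 8 WNT targets −0.07. Within the LIF list, Lifr, the LIF receptor, was at 55.1 CPM in Nanog-high and 92.0 CPM in undetected cells (−0.74, −1.34 to −0.15). Socs3, the feedback inhibitor of that receptor, was at 154 and 209 CPM (−0.45, −0.81 to −0.09), and Pim1, a kinase induced by STAT3, at 254 and 205 CPM (0.31, 0.00 to 0.63). Members of 1 pathway thus lay on both sides of 0. S phase genes had a median of 0.04, G2 and M phase genes 0.11, p53 targets −0.16 and glycolysis genes 0.02. Of the 11 p53 targets 4 were above 0, and without the 7 Col4a1-rich cells described next 6 were, with a median of 0.01.

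Matrix and endoderm genes were lower in Nanog-high cells, but much of this sat in 7 cells. All 6 primitive endoderm genes at 20 CPM had ratios below 0, with a median of −0.69, and 17 of 19 matrix and cytoskeleton genes were below 0, with a median of −0.30. The 2 lists share Col4a1, Lamb1, Lamc1 and Sparc. Col4a1, a chain of basement-membrane collagen, was at 4.69 CPM in Nanog-high and 122 CPM in undetected cells, from 4 and 113 UMIs (−4.71, −6.63 to −3.27). Of its 129 UMIs in JupHigh, 101 lay in 7 cells with 5 or more each. Serpinh1, another of the 6 genes, had 36 of its 92 UMIs in the same 7 cells. Entry at 20 CPM was taken over all JupHigh cells, and Col4a1 and Serpinh1 reached it only with these 7 undetected cells. The count of 6 and the median of −0.69 thus rest partly on genes that entered through the undetected group. None of these 7 cells held Nanog, and 0 of 492 Nanog-high cells allows a share of up to 0.610%.

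Those 7 cells had 10153 non-mitochondrial UMIs in all. They held 106 UMIs of Sparc, a matrix glycoprotein, 43 of Col4a2, 52 of the laminin chain Lama1, 36 of the collagen chaperone Serpinh1, 15 of keratin Krt8, 8 of Gata6 and 5 of Sox17, both endoderm factors. They held 1 UMI of Zfp42 and none of Pou5f1, which allows up to 295 CPM. Without them the primitive endoderm median was 0.06 with 4 genes above 0, and Sparc went from −0.79 to 0.06 (−0.30 to 0.43). The 7 cells all lie in the undetected group and were picked, after the values were seen, for a matrix gene, so ratios of matrix genes move up without them by construction. Lama1 went from −0.25 to 0.88 and Serpinh1 from −1.24 to 1.37, and no direction is read from these values. The matrix and cytoskeleton median went to −0.05, with 14 of 19 genes below 0. Whether these barcodes hold more than 1 cell was not tested.

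Some cytoskeletal genes remained lower without those cells. Lmna, the A-type lamin, was at 31.6 and 62.0 CPM over all cells (−0.97), and at −0.93 (−1.68 to −0.20) without the 7. Cnn2, an actin-binding calponin, was at −1.15 over all cells and −0.98 (−1.82 to −0.16) without them. Itgb1, the beta-1 integrin, was at 97.3 and 151 CPM (−0.63), and at −0.50 (−0.94 to −0.06) without them. On total UMIs its ratio was −0.62, and 0.17 after each cell was thinned to 1000 UMIs, where the median of all genes was 0.35. Actb, cytoplasmic actin, was at 4182 and 4560 CPM, a ratio of −0.12 (−0.20 to −0.05).

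The 2-cell-like list, with a median of 1.03 over 3 Zscan4 genes, also rested on few cells. Zscan4 genes mark a rare, transient state of ES cells that resembles the 2-cell embryo, and their near-identical copies may share reads. In JupHigh 26 cells held 3 or more Zscan4 UMIs, of which 8 were Nanog-high, 9 held 1 Nanog UMI and 9 were undetected. In bands of total UMIs the median was 1.06 in cells under 30% mitochondrial and 2.31 in the others. Without the 26 cells, which were picked by Zscan4 itself, it was −1.42.

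Genes at 50 CPM or more were ranked by ratio on total UMIs if their interval left out 0 and their direction was the same in every depth band. The 12 highest were Dqx1, Gm29560, Slc25a1, Chic2, Xaf1, Fen1, Hnrnpul1, Grm8, Gm5786, Yipf4, Ccnk and Ppil1. Their ratios ran from 0.96 to 1.39, and from 0.34 to 0.88 on the non-mitochondrial scaling. Dqx1, a DEAQ-box protein, had the highest ratio of these 12 on both scalings, at 117 CPM in Nanog-high and 63.5 CPM in undetected cells (0.88, 0.36 to 1.43), from 100 and 64 UMIs. Fen1, the flap endonuclease of DNA replication, was at 192 and 139 CPM (0.47, 0.10 to 0.85), and Slc25a1, the mitochondrial citrate carrier, at 117 and 78.6 CPM (0.58, 0.09 to 1.08).

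The same rule applied after the fact to the non-mitochondrial bands gave a further group. The rule takes only genes whose interval leaves out 0, so the intervals of this group do so by selection and are not a test. Lmnb2, a B-type lamin, was at 183 and 117 CPM (0.64, 0.27 to 1.03), opposite in direction to Lmna. Hsp90ab1, the abundant cytosolic chaperone, was at 1677 and 1514 CPM (0.15, 0.03 to 0.26). Kmt2a, a histone H3K4 methyltransferase, was lower in Nanog-high cells, at 73.8 and 128 CPM (−0.79, −1.29 to −0.30), as was Ankrd11, a chromatin regulator, at 59.8 and 90.1 CPM (−0.59, −1.15 to −0.05). Meg3, the imprinted long noncoding RNA, was at 360 and 497 CPM (−0.47, −0.69 to −0.24). Meg3 went the same way in the other libraries, at −0.46 in JupLow, −0.38 in wild-type cells in 2i and −0.44 in wild-type cells in serum.

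The naive genes separated Nanog-high from undetected cells far more in the other serum libraries than in JupHigh. The naive list median was 1.70 in JupLow and 1.30 in wild-type serum cells, with 13 of 14 genes above 0 in each, against 0.11 in JupHigh and 0.13 in wild-type cells in 2i. All genes at 20 CPM had medians between 0.00 and 0.04 in these 4 libraries. The summed level of the naive list was 5223 CPM in undetected and 5842 CPM in Nanog-high cells of JupHigh. In JupLow it was 1313 and 3930 CPM, in wild-type serum cells 1031 and 2519 CPM, and in 2i 3593 and 4863 CPM. The sum is weighted towards abundant genes and was not matched for depth, and single genes differ from it. In undetected cells of JupHigh, Klf2 was at 558 CPM, Tbx3 at 63.9, Tcl1 at 33.6 and Tfcp2l1 at 306, each lower than in the Nanog-high cells of 2i, at 693, 148, 98.7 and 333 CPM, with intervals that overlap for Tfcp2l1. Zfp42 and Klf4 went the other way, at 979 and 444 CPM in the former cells and 652 and 317 CPM in the latter. Esrrb was about equal, at 430 and 432 CPM. The groups were of unequal size, with 44 Nanog-high of 1200 cells in JupLow, 32 of 725 in wild-type serum cells and 1149 of 2889 in 2i. Nanog itself was at 449.8 CPM in JupHigh, 539.3 in 2i, 92.4 in JupLow and 82.8 in wild-type serum cells. The cut at 2 UMIs took in 22.9%, 39.8%, 3.67% and 4.41% of their cells in that order. In JupHigh, 1 Nanog rate per UMI in all cells gave 913 cells with none, 748 with 1 and 492 with more. Observed were 1046, 615 and 492. That rate came from the same cells, so the equal last counts are no test of it. Numbers under 1 rate were not computed for the other libraries, and their bearing on the naive medians was not tested.

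Primitive endoderm genes and matrix and cytoskeleton genes had list medians below 0 in JupHigh, JupLow, 2i and wild-type serum cells. In JupLow and in 2i, 2 of 6 primitive endoderm genes were above 0. The trophoblast, neural and fibroblast lists held 1 gene each and were mixed. The trophoblast gene was at −0.71 in JupHigh, 1.11 in JupLow, 0.28 in 2i and 1.77 in wild-type serum cells. The neural gene was at −0.18 in JupHigh, 0.31 in JupLow and −0.05 in 2i. The fibroblast gene was below 0 in each. The primitive endoderm median was −3.00 in wild-type serum cells, −0.78 in JupLow, −0.69 in JupHigh and −0.21 in 2i, and the matrix and cytoskeleton median was −1.14, −0.64, −0.30 and −0.07 in that order. YAP targets had medians of −0.90 in wild-type serum cells and −0.78 in JupLow, against 0.01 in both JupHigh and 2i. In wild-type serum cells Col4a1 was at 502 CPM in undetected and 50.8 CPM in Nanog-high cells, and Sparc at 1311 and 457 CPM. The primitive endoderm, matrix and cytoskeleton, and YAP target medians were lowest in wild-type serum cells. The primitive endoderm medians of JupLow and JupHigh lay close together, but without the 7 Col4a1-rich cells that of JupHigh was 0.06. The matrix and cytoskeleton median of JupHigh was then −0.05. No such cells were set aside in the other libraries. The part of these genes in the naive split was not tested.

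Zfp42 shows the pattern. In cells matched for non-mitochondrial depth it was at 1188 CPM in Nanog-high and 998 CPM in undetected cells of JupHigh, and at 998 and 238 CPM in JupLow. In wild-type cells it was at 645 and 480 CPM in 2i, and at 578 and 133 CPM in serum. The Nanog-high level was above the undetected level in all 4 libraries, and the gap was widest where the undetected level was low. Klf2 was at 642 and 600.0 CPM in JupHigh, 583 and 211 in JupLow, 602 and 565 in 2i, and 442 and 98.4 in wild-type serum cells. Nr0b1 was at 238 and 229 CPM in JupHigh and at 168 and 23.1 CPM in JupLow. Bmp4, a ligand of the BMP pathway, was at 133 and 113 CPM in JupHigh, 186 and 23.1 in JupLow, 27.9 and 23.8 in 2i, and 113 and 18.3 in wild-type serum cells.

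**Figure D4:**
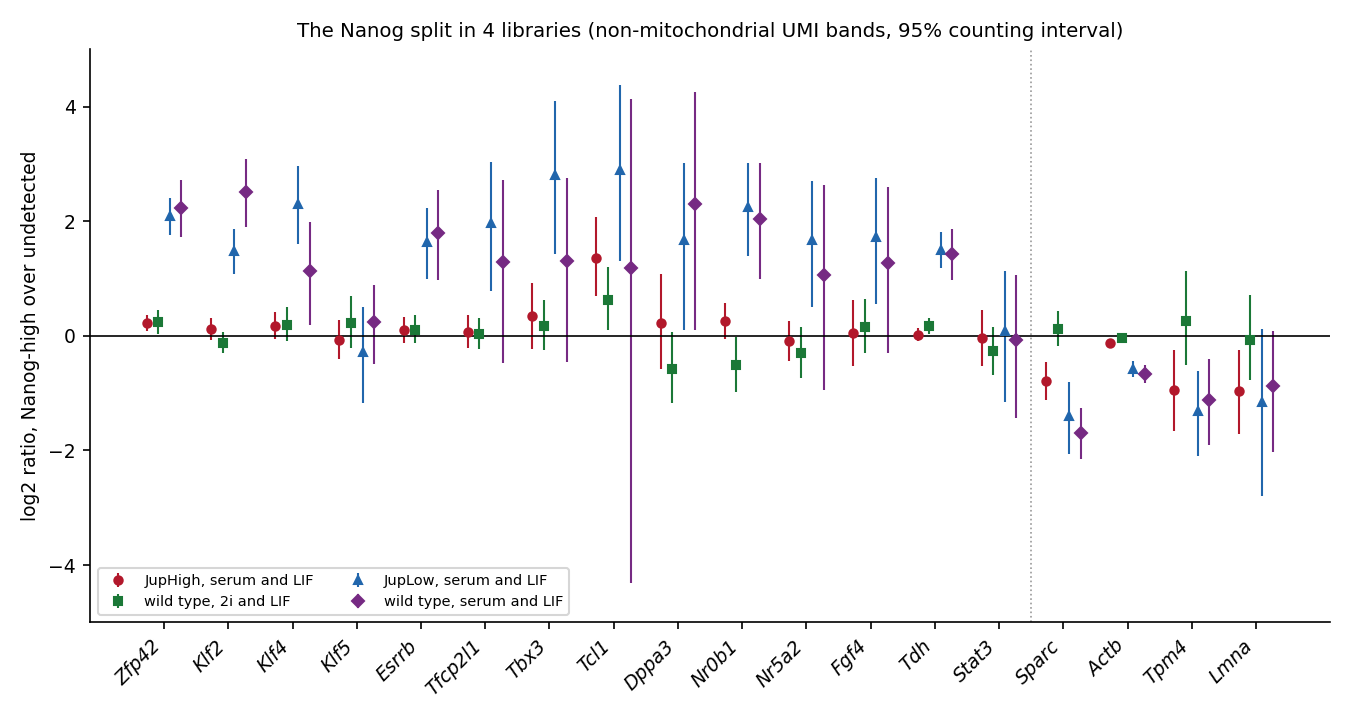
Log2 ratio of Nanog-high over Nanog-undetected cells (y axis) for naive genes (left of the dotted line) and matrix or cytoskeletal genes (right) in 4 libraries, in bands of non-mitochondrial UMIs with 95% counting intervals. Zfp42 is at 0.23 in JupHigh and 0.25 in 2i against 2.09 in JupLow and 2.23 in wild-type serum cells.

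Whether JupHigh differed was tested in edgeR on counts summed per library and Nanog group, with an interaction of Nanog group and JupHigh. The libraries are separate cultures of different conditions, 1 each, so the spread among the other libraries includes their conditions. Over all 4 libraries 0 genes (0%) passed at an adjusted p of 0.05, of 8208 tested on non-mitochondrial UMIs (162 at an unadjusted p under 0.05, and 0 in DESeq2) or of 7968 on total UMIs (125, and 0 in DESeq2). With the 2i library left out, so that JupHigh, JupLow and wild-type serum cells remained, 25 of 7559 genes passed (0.331%), 17 with a lower ratio in JupHigh and 8 with a higher one. On total UMIs 33 of 7363 passed (0.448%). With JupLow or the wild-type serum library left out instead, none did. The fit without 2i has 6 sums and 1 residual degree of freedom, borrows its spread across genes, and was chosen as a leave-one-out alternative.

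In that fit, 5 of 15 naive genes had a lower ratio in JupHigh by the edgeR test on non-mitochondrial UMIs and none a higher one, with a list median of −1.48 against 0.03 over all genes. The difference in log2 ratio, JupHigh minus the other 2, was −1.79 for Zfp42 (adjusted p = 6.07e-10), −1.57 for Klf2 (6.16e-05), −1.64 for Esrrb (0.00734), −2.25 for Nr0b1 (0.00344) and −1.44 for Tdh (4.17e-08). Klf4 passed on total UMIs (−1.55, adjusted p = 0.0142) and not on non-mitochondrial ones (−1.48, 0.0523). Bmp4 (−2.58, 5.77e-04) and Dnmt3l (−1.36, 5.77e-04), a cofactor of de novo methylation, also had lower ratios in JupHigh. Lama1 (3.62, 1.91e-04) and Ccn1 (2.72, 0.0131), a YAP target, had higher ones. Sparc had a difference of 1.22 that passed on non-mitochondrial UMIs (0.0206) and did not on total UMIs (1.01, 0.110).

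What the Nanog split had in common over the 4 libraries was tested with the library as a block. On total UMIs edgeR called 124 of 7968 genes (1.56%), 14 higher in Nanog-high cells and 110 lower, and 23 of the lower were mitochondrial genes or copies of them. Zfp42 rose by 1.00 (adjusted p = 3.97e-04), Klf2 by 0.74 (0.00759) and Tdh by 0.70 (0.00515), the 3 naive genes that passed. In DESeq2 none of them passed (adjusted p of 0.476, 0.0904 and 0.0925), and its 38 calls were all lower in Nanog-high cells. On non-mitochondrial UMIs 10 of 8208 passed (0.122%), all lower, and no naive gene did, with Zfp42 at 0.87 and an adjusted p of 0.0530.

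The 10 genes were the collagens Col4a1 and Col4a2, the keratins Krt8 and Krt18, the actin-binding Tagln and Gsn, the annexins Anxa2 and Anxa3, Serpinh1 and Nlrp4e. By list, 3 of 7 primitive endoderm, 2 of 3 trophoblast and 1 of 3 fibroblast genes passed. So did 2 of 22 matrix and cytoskeleton, 2 of 14 cell adhesion and junction, and 1 of 12 formative and primed genes. Some genes are in more than 1 list. Col4a1 fell by 3.04 (SE 0.34, adjusted p = 5.94e-06 in edgeR) and Krt8 by 2.45. In matched cells Col4a1 was at 5.07 CPM in Nanog-high and 56.6 CPM in undetected cells of JupHigh, 8.83 and 128 in JupLow, 56.7 and 494 in wild-type serum cells, and 2.98 and 5.40 in 2i, where the gene was scarce in both groups. Krt8 was at 8.9 CPM in Nanog-high and 22.9 CPM in undetected cells of JupHigh, 97.2 and 1094 in JupLow, 79.3 and 764 in wild-type serum cells, and 15.9 and 14.0 in 2i. The Krt8 level was lower in Nanog-high cells in the 3 serum libraries. Over all JupHigh cells, 15 of the 31 Krt8 UMIs of undetected cells lay in the 7 Col4a1-rich cells. Without the JupHigh library the same fit called 24 of 7526 genes (0.319%), 7 higher and 17 lower. Of 15 naive genes 3 were among the higher, with a naive list median of 0.58 against −0.02 over all genes. Without the wild-type serum library the fit called 3 of 8650 (0.0347%).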

How the data were processed

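Transcripts were counted in single mouse ES cells by inDrop, 1 library per condition. The deposited tables hold UMI counts per barcode and gene, made by the authors from alignments to mm10 (GRCm38). Per the submitters' processing notes, which give no order or versions, FastQC, STAR, featureCounts, DESeq2 and Scanpy were used in the series. The members and gene lists were chosen with earlier results of these data known.

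Cells with at least 1000 UMIs and at most 0.9 detected genes per UMI were kept, with no doublet caller. JupHigh had 4310792 UMIs in its cells, with a median of 1902 per cell, and UMIs in columns without a gene name (0.105%) stayed out. The other libraries had 112 to 2889 cells with medians of 1731.5 to 2465 UMIs. Nanog and Nanog-ps1 were left out of totals. CPM were computed from UMIs summed per group in 5 bands of total UMIs (from 1000, 1500, 2000, 3000 and 5000), with undetected cells weighted to the Nanog-high share of each band. Ratios have 95% Clopper-Pearson intervals. Genes entered at 50 CPM, list genes at 20 CPM. The text names the 12 largest ratios in each direction whose interval leaves out 0 and whose direction is the same in each band with at least 20 cells of both groups, and the list genes.

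Across the 4 libraries with at least 20 Nanog-high cells, undetected cells were matched to Nanog-high cells within 10% of depth. Sums were tested in edgeR 4.0.16 by quasi-likelihood with TMM factors and a library block, under R 4.3.3, with Benjamini-Hochberg adjustment at 0.05 over all genes tested. DESeq2 1.42.0 was an alternative. Nuclear copies of mitochondrial genes were those with at least 20% of their 31-base words in the mitochondrial transcripts of GENCODE M21, on either strand. The scripts were tested on simulated data. A barcode with an incomplete record in the gel library was left out.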

Additional observations from a re-analysis of the deposited data

Results flagged for a closer look

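When the wild-type library in 2i and LIF was left out, 33 genes on total UMIs and 25 genes on non-mitochondrial UMIs had a Nanog split in JupHigh that differed from the split in JupLow and wild-type serum cells, by the interaction test in edgeR at an adjusted p of 0.05. They include Zfp42, Klf2, Esrrb, Nr0b1 and Tdh on both scalings. JupHigh is 1 library in this test, the spread between the other 2 leaves 1 residual degree of freedom, and the library left out had a naive list median near that of JupHigh (0.13 against 0.11). With all 4 libraries, or with another library left out, 0 genes passed.

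Barcodes of JupHigh with fewer than 500 UMIs, 1344 in number and used in no comparison, held Nanog at 728.3 CPM, above the 449.8 CPM of the cells that were kept. Per non-mitochondrial UMI the levels were 804 CPM (729 to 884) and 650.2 CPM (622 to 679.8). The gap was narrower on that scaling, and mitochondrial UMIs were 9.38% of the UMIs in these barcodes and 30.8% in the cells.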

How the results depend on the processing

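Within JupHigh the counts of genes past 1.5-fold moved with the scaling. Against 464 higher and 39 lower, totals without mitochondrial and ribosomal protein genes gave 30 and 135, a TMM factor 29 and 141, and non-mitochondrial bands 20 higher. The low-value filter at 20 CPM gave 1097 and 122. Cells under 30% mitochondrial gave 47 higher, and cells at 30% or more gave 719 and 185. Counting cells with 1 or more Nanog UMIs as positive gave 142 and 16, and 3 or more gave 823 higher. The naive list median of 0.48 went to 0.15 without mitochondrial and ribosomal genes, 0.15 with TMM, 0.11 in non-mitochondrial bands, 0.061 in cells under 30% mitochondrial and 0.32 in those at 30% or more. The formative and primed median of 0.13 turned to −0.19, −0.20, −0.16 and −0.26 under the first 4 of these.

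Single ratios turned as follows: Zscan4a to −0.077 without bands, −0.027 under 30% mitochondrial and −0.30 without the Zscan4 cells, Zscan4d to −0.63 without those cells, and Itgb1 to 0.17 on thinned cells. Under 30% mitochondrial, mt-Nd2 was at 0.060, mt-Nd5 at 0.12, mt-Nd4 at 7.2e-04, mt-Cytb at 0.015, Gm28437 at 0.023 and mt-Co3 at 0.26. At 30% or more, Id3 was at −0.16, Cdc45 at −0.41 and Max at −0.066.

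Across libraries the 124 calls became 38 in DESeq2, 10 on non-mitochondrial UMIs and 4 there in DESeq2. No replicate block, which here is the library, left 0 on either scaling. Leaving out 1 library in turn gave 74 to 119 calls, fewest without JupHigh, and on non-mitochondrial UMIs 24 without JupHigh, 21 without 2i, 9 without JupLow and 3 without wild-type serum cells. The interaction gave 33 (total) and 25 (non-mitochondrial) without 2i, and 0 in the other alternatives run. The difference for Sparc on total UMIs was 1.01 without 2i and turned to −0.13 without the wild-type serum library. The cause of these changes was not tested. Depth limits the split itself, since 0 Nanog UMIs at the median depth allows up to 1719 CPM, and the groups of 44 and 32 Nanog-high cells in JupLow and wild-type serum cells set the width of their intervals.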
